A study of Mus musculus with 11 samples.

Results

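The hypoxia response of C2C12 cells was followed here through 10 genes: the HIF prolyl hydroxylases Egln1, Egln2 and Egln3, the transcription factor subunit Hif1a, and the HIF target genes Car9, Vegfa, Adm, Bnip3, Kdm3a and Ndrg1. They were chosen by name, as the probes whose annotated symbol is one of these, which gave 20 of the 25697 probes of the array and 10 of its 16593 gene symbols. Of these, 8 genes passed the detection filter and were tested. Adm and Bnip3 did not pass it and are given as values only.

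C2C12 is an established line of mouse myoblasts that fuse into multinucleated myotubes when serum is reduced. Proliferating cultures (Day 0) were kept in DMEM with 20% fetal bovine serum, and differentiated cultures (Day 6) were moved to DMEM with 2% horse serum for 6 days. Each day was represented by 5 samples, described by the submitters as independent experiments, and their total RNA was read on Illumina MouseRef-8 v2.0 BeadChips. Cultures were kept under 5% CO2, and the labels name no drug, genetic change or change of oxygen for either day.

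Cells sense oxygen through dioxygenases that need molecular oxygen to work. The prolyl hydroxylases, proteins EGLN1 (PHD2), EGLN2 (PHD1) and EGLN3 (PHD3), hydroxylate the alpha subunits of the hypoxia inducible factors, and the VHL ubiquitin ligase then marks these for degradation. When oxygen is scarce the alpha subunits persist, pair with ARNT and bind hypoxia response elements, whose core letters are ACGTG or GCGTG, so HIF activity is set mainly at the protein level and is read out in mRNA through target genes, Egln3 among them. In skeletal muscle these targets serve glucose use, blood vessel growth, pH balance and the turnover of mitochondria.

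Values below are log2 signals after background correction and quantile normalization, and a gene is represented by its detected probe with the highest mean. Array medians before normalization were 56.6 to 62.7 at Day 0 and 57.2 to 64.3 at Day 6, with 45.9 to 47.4% and 44.7 to 48.7% of probes detected. Day 0 replicate 5, the mean of 2 arrays, stood apart: among the Day 0 samples it was the highest for 2619 genes and the lowest for 3060 of 8659, and its muscle markers lay a median of 1.52 above the Day 0 mean. Of 7 muscle markers, all 6 that were tested were higher at Day 6, from Myod1 at 0.96 to Tnnt3 at 5.40, and the myoblast factor Myf5 was undetected on every array. Of the endothelial markers Pecam1, Cdh5, Tie1 and Emcn were undetected on every array and Kdr and Tek were not called, of the adipocyte markers Adipoq, Plin1, Fabp4 and Cidec were undetected and Lep was not called, and of the macrophage markers Cd14 was lower at Day 6, with a change of -1.04, while Ptprc, Adgre1, Lyz2 and Itgam were detected in no Day 0 and 1 or 2 Day 6 samples. A bulk culture is a mix of myotubes and unfused cells, so that a change in the share of a cell type and a change in RNA per cell cannot be told apart. Sample labels also hold a tag from E1 to E4 that is not explained, and changes within each tag are given beside the overall change.

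Between the days Egln3, Car9 and Kdm3a rose and Egln2 fell, whereas Egln1, Hif1a, Vegfa and Ndrg1 were not called. Thus 4 of the 8 tested genes were called by limma at a Benjamini-Hochberg adjusted p under 0.05 (50%), against 45.3% of all 8659 genes tested. In single directions, 37.5% of the 8 were higher against 21.1% of all genes, and 12.5% were lower against 24.2%, which with 8 genes amounts to about 1 gene in each direction. The balance of directions depended on the scaling: with equal array medians 1155 genes of all were higher and 2068 lower, in place of 1825 and 2098, and 2 of the 8 genes were higher and 1 lower. The 8 genes had a median change of 0.08, and all genes one of -0.03. Among the 14 tested probes of these genes 5 were higher and 1 lower, against 44.4% of all tested probes called in either direction. The values of the days did not overlap for Egln2, Egln3 and Car9, 3 of the 8 genes, against 32.5% of all genes. Car9, undetected on Day 0, passed the detection filter through Day 6 alone, which favours such a separation.

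**Figure D1:**
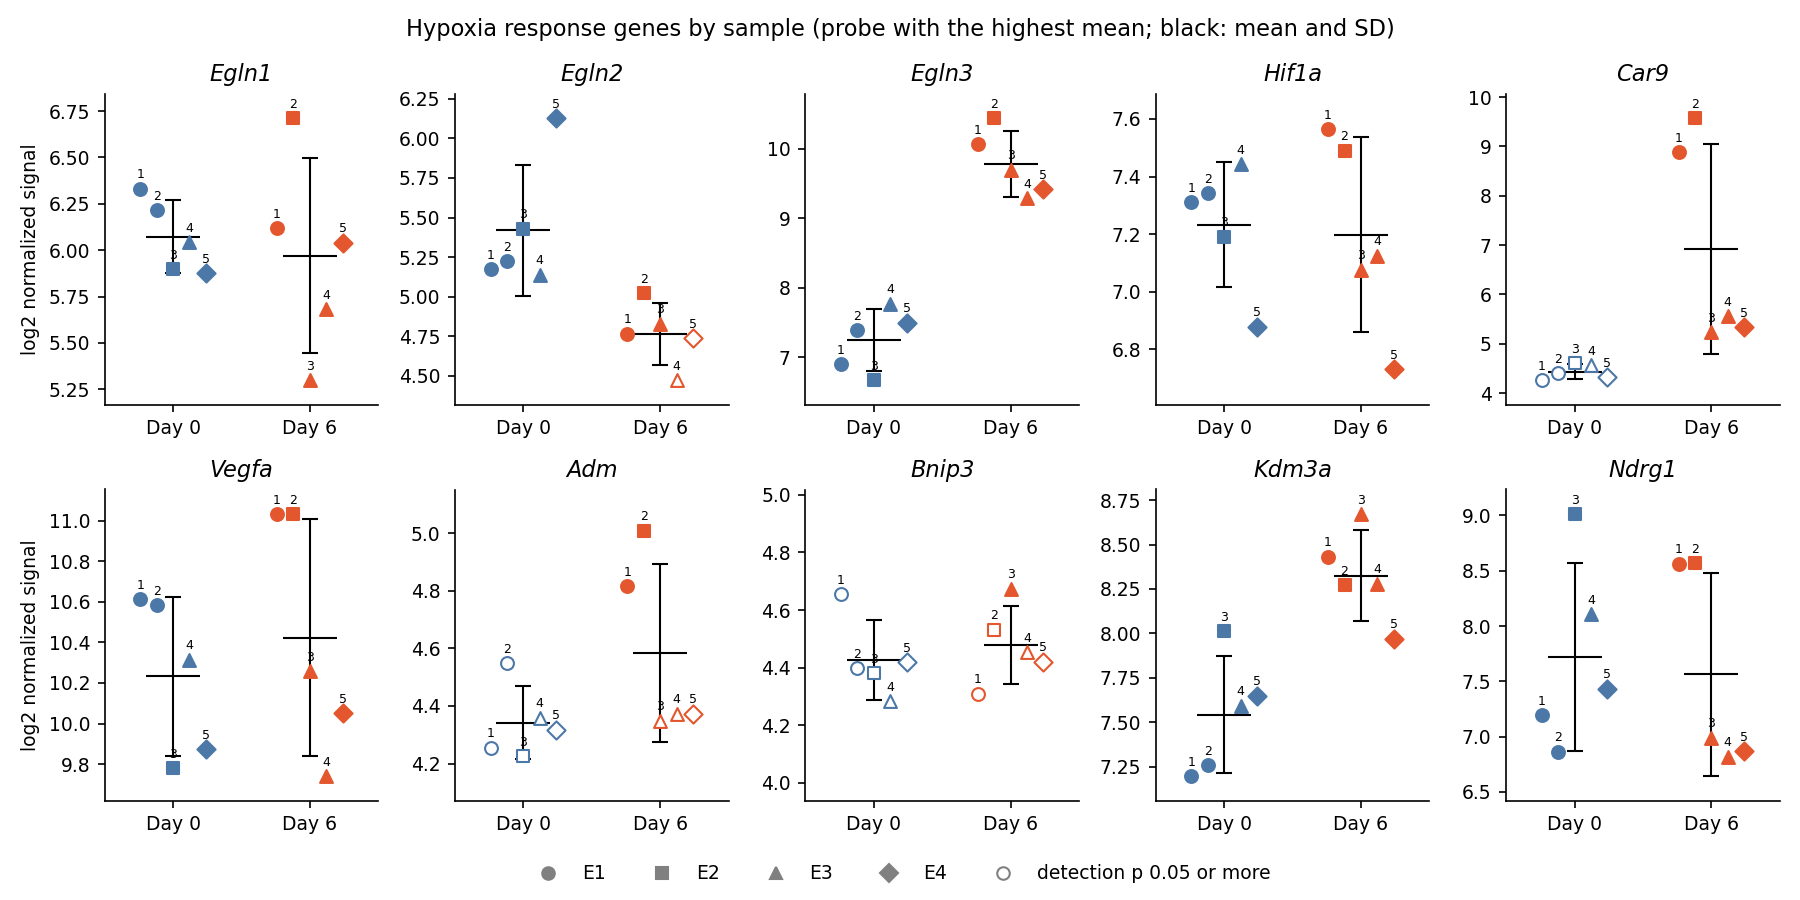
Log2 normalized signal of each of the 10 genes (y axis, a scale of its own per gene) in the 5 Day 0 samples (blue) and the 5 Day 6 samples (orange), numbered by replicate, with marker shapes for the label parts E1 to E4, open symbols for samples with a detection p of 0.05 or more, and the mean and SD in black. Egln3 sat at 6.67 to 7.77 on Day 0 and at 9.29 to 10.44 on Day 6, while Car9 on Day 6 lay at 8.88 and 9.58 in replicates 1 and 2 and at 5.23 to 5.56 in the others.

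To place the 4 genes that changed on the genome, the 300-base RefSeq promoter windows (250 bases before to 50 after each start, build GRCm38.p6) were searched for ACGTG and GCGTG on both strands, a palindromic CACGTG being counted on each strand. These letters are common: among 32851 mouse windows, 19.6% held ACGTG, 32.4% held GCGTG and 43.8% held either. The 9 member genes with an entry had 13 windows, of which 7 held ACGTG, 7 held GCGTG and 10 held either, and Ndrg1 had no entry. For the 4 genes that changed, 30 bases around a match are shown in the gene's own direction, with the matched letters in capitals (CACGT is ACGTG read on the other strand).
Egln3: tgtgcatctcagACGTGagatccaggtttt
Car9: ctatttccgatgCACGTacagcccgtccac
Kdm3a: ccgggaggctgtGCGTGtcttgtgagagag
Egln2: agcctcctgtcaACGTGcggttcgcgcacg
The Egln3 stretch lies at chr12:54204086-54204115 on the minus strand, with its match starting at position -229 from the gene's start. That of Car9 lies at chr4:43506996-43507025 on the plus strand, with its match at position -18. That of Kdm3a lies at chr6:71632927-71632956 on the minus strand, with its match at position -27. That of Egln2, which held 3 matches to each motif in this window, lies at chr7:27166833-27166862 on the minus strand, with the match shown at position -48. Positions are counted from the start of the window shown. The other Kdm3a windows held neither motif, and the other Egln2 window held GCGTG but no ACGTG. Genes that were not called held such letters as well, among them Hif1a with 3 matches to ACGTG and Egln1 with 1 match to each motif, so a match describes the window and nothing else.

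Egln3, the prolyl hydroxylase that is itself a classic HIF target, was detected in every sample of both days and rose clearly. Its log2 signals on Day 0 were 6.90, 7.39, 6.67, 7.77 and 7.50 in replicates 1 to 5, and on Day 6 they were 10.07, 10.44, 9.69, 9.29 and 9.42. Every Day 6 sample lay above every Day 0 sample, and Day 6 replicates 1 and 2 were the highest. The mean rose from 7.25 ± 0.45 to 9.78 ± 0.47 (SD, n = 5 per day), a log2 change of 2.53 (SE 0.25, 95% confidence interval 1.99 to 3.08) or 5.79-fold (limma, adjusted p = 3.05e-06). Within E1, E2, E3 and E4 the change was 2.92, 3.76, 1.72 and 1.92, and without Day 0 replicate 5 it was 2.60. The second Egln3 probe was undetected on every array, at 4.24 to 4.48, and carries no information on the change.

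Egln2, a prolyl hydroxylase that is not usually counted among the genes induced by hypoxia, moved the other way. Its log2 signals were 5.17, 5.22, 5.43, 5.14 and 6.13 on Day 0 and 4.77, 5.02, 4.83, 4.47 and 4.74 on Day 6. The days did not overlap, Day 0 replicate 5 was far above the other Day 0 samples, and the probe was detected in all 5 Day 0 samples but only in Day 6 replicates 1, 2 and 3. The mean was 5.42 ± 0.41 on Day 0 and 4.77 ± 0.20 on Day 6, a log2 change of -0.65 (SE 0.19, 95% confidence interval -1.07 to -0.23) or 1.57-fold lower (limma, adjusted p = 0.0143). Without Day 0 replicate 5 the change was -0.48 (adjusted p = 0.0124), and within E1 to E4 it was -0.43, -0.41, -0.49 and -1.39. The size depended on how the background was handled, being -0.33 without background correction (adjusted p = 0.037) and -0.30 with normexp without controls (adjusted p = 0.0408), in a range of adjusted p over all alternatives of 0.00931 to 0.0461.

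Egln1, the hydroxylase that sets HIF stability in most cells at normal oxygen, was detected on every array but did not pass the test. Its first probe read 6.33, 6.22, 5.90, 6.04 and 5.88 on Day 0 and 6.12, 6.71, 5.30, 5.68 and 6.04 on Day 6. The days overlapped, and the Day 6 samples spread over 1.41 log2 units against 0.45 on Day 0, with replicate 2 the highest and replicate 3 the lowest. The change was -0.10 (95% confidence interval -0.59 to 0.38, limma adjusted p = 0.748), so that a change of up to about that size in either direction was not resolved. Within E1 to E4 it was -0.15, 0.81, -0.55 and 0.16. A second probe gave -0.11 (adjusted p = 0.744 over probes), with Day 6 values from 5.14 to 6.46, and the third probe was detected in 1 sample of each day and was not tested.

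Hif1a, which encodes the oxygen-regulated alpha subunit, was not called, and its days differed by less than the spread of the samples. Its log2 signals were 7.31, 7.34, 7.19, 7.44 and 6.88 on Day 0 and 7.57, 7.49, 7.08, 7.13 and 6.73 on Day 6. Replicate 5 was the lowest sample of each day, and Day 6 replicates 1 and 2 were the highest of theirs. The change was -0.04 (SE 0.18, 95% confidence interval -0.42 to 0.35, limma adjusted p = 0.898), and within E1 to E4 it was 0.24, 0.30, -0.34 and -0.15. The arrays measure Hif1a mRNA and do not show how much HIF-1 alpha protein the cells held.

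**Figure D2:**
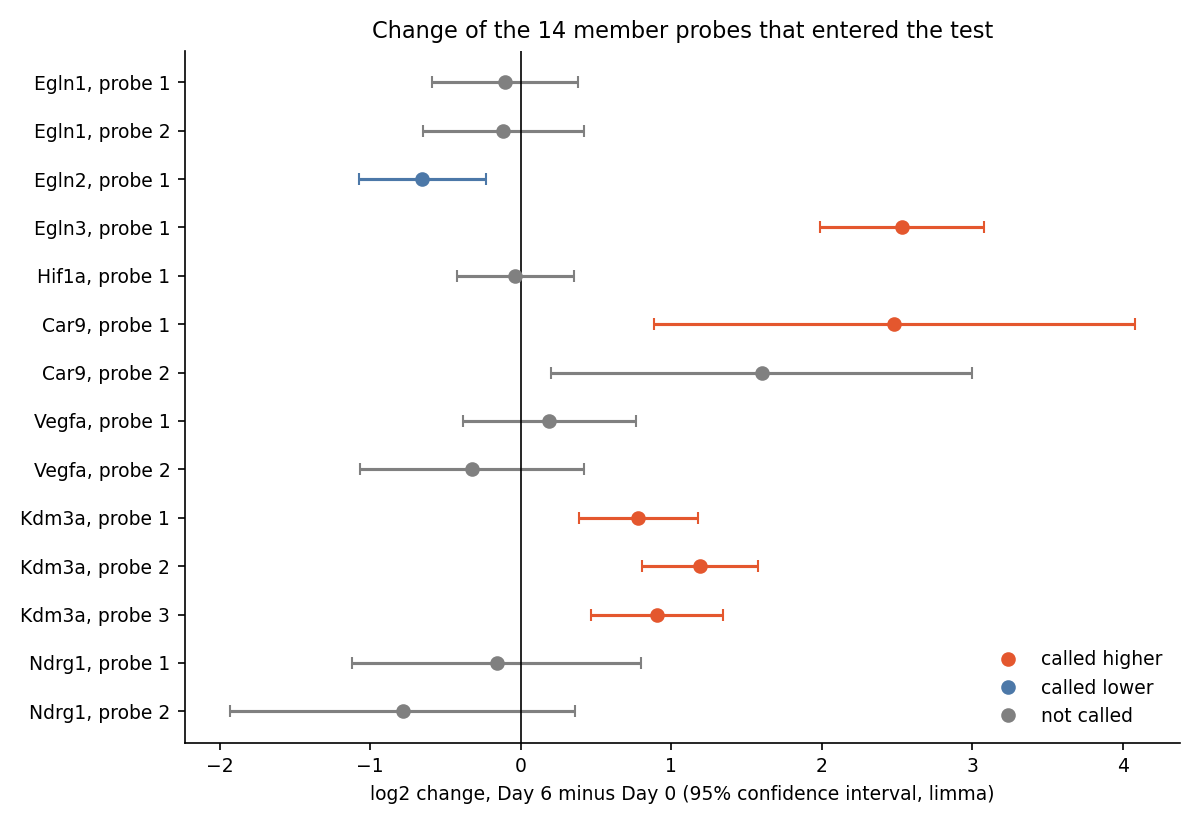
Log2 change from Day 0 to Day 6 (x axis) of the 14 tested probes of the 8 genes (rows), with 95% confidence intervals from limma over all tested probes, called probes in orange (higher) or blue (lower) and the rest in grey. The Egln3 interval runs from 1.99 to 3.08 and the intervals of all 3 Kdm3a probes lie above 0, while the interval of the first Car9 probe is wide, from 0.89 to 4.08.

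Car9 encodes the membrane carbonic anhydrase IX that handles acid at the cell surface and is among the most tightly HIF-dependent genes. On its first probe, though not on the others, every Day 6 sample lay above every Day 0 sample, by very different amounts. Its first probe read 4.26, 4.41, 4.61, 4.57 and 4.33 on Day 0, when it was undetected in all 5 samples. On Day 6 it read 8.88, 9.58, 5.23, 5.56 and 5.34 and was detected in all 5. Replicates 1 and 2 thus stood far above the other 3 Day 6 samples, which themselves lay above every Day 0 sample. The deposited signals show the same before any normalization, at 497 and 797 in Day 6 replicates 1 and 2 against 85.6, 75.4 and 69.7 in replicates 3, 4 and 5 and 50.5 to 61.3 on Day 0.

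The fitted Car9 change was 2.48 (SE 0.75, 95% confidence interval 0.88 to 4.09, limma adjusted p = 0.0148), from 4.44 ± 0.15 to 6.92 ± 2.13 (SD, n = 5 per day). Because Day 0 was below detection, the fold is a bound: the Day 6 mean was at least 4.69-fold higher than the lowest signal that counted as detected on the Day 0 arrays. By an exact permutation test, two-sided, the difference of means gave p = 0.00794, the smallest that 5 against 5 samples allow. The probe passed the detection filter through Day 6 alone, which favours such a separation. Neither this p nor that of limma is thus free of the filter. Within E1, E2, E3 and E4 the change was 4.54, 4.96, 0.83 and 1.01. The call was lost with normexp without controls (change 1.60, adjusted p = 0.051) and when undetected probes were let in (adjusted p = 0.0722), in a range of adjusted p over all alternatives of 0.00204 to 0.0722. Only 1 of the 8659 genes tested had a larger SD among the Day 6 samples, where the median SD over genes was 0.23.

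The other Car9 probes were also highest in Day 6 replicates 1 and 2. The second read 4.26, 4.22, 4.30, 4.35 and 4.48 on Day 0 and 7.64, 8.22, 4.49, 4.34 and 4.92 on Day 6, undetected in all Day 0 samples and detected in Day 6 replicates 1, 2 and 5. It did not pass the test over probes (change 1.60, SE 0.65, adjusted p = 0.0598, at least 2.35-fold higher). It passed when Day 6 replicate 3, 4 or 5 was left out, with changes of 1.96, 2.00 and 1.85 and adjusted p of 0.0311, 0.0249 and 0.0489. Those replicates held its lowest Day 6 values, so leaving 1 of them out had to raise the change. The replicate block gave an adjusted p of 0.0423 and the E1 to E4 block 0.00933, in a range over all alternatives of 0.00933 to 0.205. Like the first probe, the second passed the detection filter through Day 6 alone, so its p-values are not free of the filter either. The third probe was detected only in Day 6 replicates 1 and 2, at 7.08 and 7.28 against 4.34 to 4.48 in the other 3, and was not tested.

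Kdm3a, a histone H3 lysine 9 demethylase and HIF target, rose on all 3 of its probes, with an SD of 0.26 among the Day 6 samples of the first. The first probe read 7.20, 7.26, 8.01, 7.59 and 7.65 on Day 0 and 8.43, 8.27, 8.67, 8.28 and 7.97 on Day 6. The days overlapped only in that Day 0 replicate 3 lay just above Day 6 replicate 5. The change was 0.78 (SE 0.18, 95% confidence interval 0.39 to 1.18) or 1.72-fold (limma, adjusted p = 0.00342), and within E1 to E4 it was 1.20, 0.26, 0.88 and 0.32. With array medians set equal in place of quantile normalization it was 0.59 and was no longer called (adjusted p = 0.129, in a range over all alternatives of 0.000133 to 0.129).

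On the second Kdm3a probe the Day 0 samples read 6.94, 6.86, 7.10, 7.32 and 6.37 and the Day 6 samples 7.88, 8.09, 8.07, 8.14 and 8.37. The days did not overlap, with a change of 1.19 (adjusted p = 0.000117 over probes). The third probe ran from 6.00 to 6.79 on Day 0 and from 6.96 to 7.83 on Day 6, again without overlap, with a change of 0.91 (adjusted p = 0.0025). With equal array medians the change of the third probe was 0.74 (adjusted p = 0.0565), so that this normalization took the calls of the first and the third probe. When the second probe, which had the largest SD, stood for the gene, its change was thus 1.19 in place of 0.78.

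Vegfa, the main growth factor of blood vessels, was among the strongly detected genes and was not called. Its first probe read 10.61, 10.58, 9.78, 10.31 and 9.87 on Day 0 and 11.03, 11.03, 10.26, 9.74 and 10.05 on Day 6. On Day 6 replicates 1 and 2 lay above all other samples of either day, and replicate 4 lay below all of them. The change was 0.19 (SE 0.27, 95% confidence interval -0.39 to 0.77, limma adjusted p = 0.601), with 0.43, 1.25, -0.31 and 0.18 within E1 to E4. The second probe read 9.17, 9.05, 8.10, 8.17 and 7.98 on Day 0 and 8.81, 9.08, 7.34, 8.09 and 7.54 on Day 6, and its change had the opposite sign, at -0.32 (adjusted p = 0.484). Neither sign is resolved by these samples, and the third probe was undetected on every array.

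Ndrg1, a stress-responsive gene linked to growth arrest and differentiation, varied more among samples of a day than between the days. The first probe read 7.19, 6.86, 9.01, 8.10 and 7.43 on Day 0 and 8.56, 8.57, 6.99, 6.82 and 6.87 on Day 6. On Day 0 replicates 3 and 4 were the highest, on Day 6 replicates 1 and 2 were, and the days overlapped over nearly their whole range. The change was -0.16 (SE 0.45, 95% confidence interval -1.12 to 0.80, limma adjusted p = 0.805), with 1.54, -0.45, -1.20 and -0.57 within E1, E2, E3 and E4. The SD was 0.85 on Day 0 and 0.92 on Day 6, where 74 of the 8659 genes had a larger SD. The second probe had the same high samples, with 8.61 and 7.87 in Day 0 replicates 3 and 4 and 7.63 and 7.92 in Day 6 replicates 1 and 2, and a change of -0.78 (SE 0.53, adjusted p = 0.256).

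Adm, the precursor of the vasodilator peptide adrenomedullin, was near background. It read 4.26, 4.55, 4.23, 4.36 and 4.32 on Day 0, undetected throughout, and 4.82, 5.01, 4.35, 4.37 and 4.37 on Day 6, where only replicates 1 and 2 were detected. Bnip3, a mitophagy receptor, read 4.28 to 4.65 on Day 0 and 4.31 to 4.67 on Day 6 and was detected in Day 6 replicate 3 alone. Neither gene was tested, and neither value supports a level for the cells beyond lying near the limit of detection of these probes.

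Across the members, then, the Day 6 samples differed among themselves. Day 6 replicates 1 and 2 held the 2 highest Day 6 values of Egln1, Egln3, Hif1a, Car9, Vegfa and Ndrg1, and did not for Egln2 and Kdm3a. This is 6 of the 8 tested genes, where the same order was found in 18.2% of all genes tested, and the reverse order, found in 18.4% of all genes, was shown by 0 of the 8. The order was noticed in these values, and the difference of Car9 between Day 6 samples was known when the genes were chosen. The order is therefore given as a description with no test. Taking each gene's deviation from its own Day 6 mean, the median over the 8 genes was 0.33, 0.63, -0.14, -0.39 and -0.37 in Day 6 replicates 1 to 5, whereas over all genes it stayed between -0.02 and 0.01. On Day 0 the same medians were -0.21, 0.04, -0.02, 0.11 and -0.15.

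**Figure D3:**
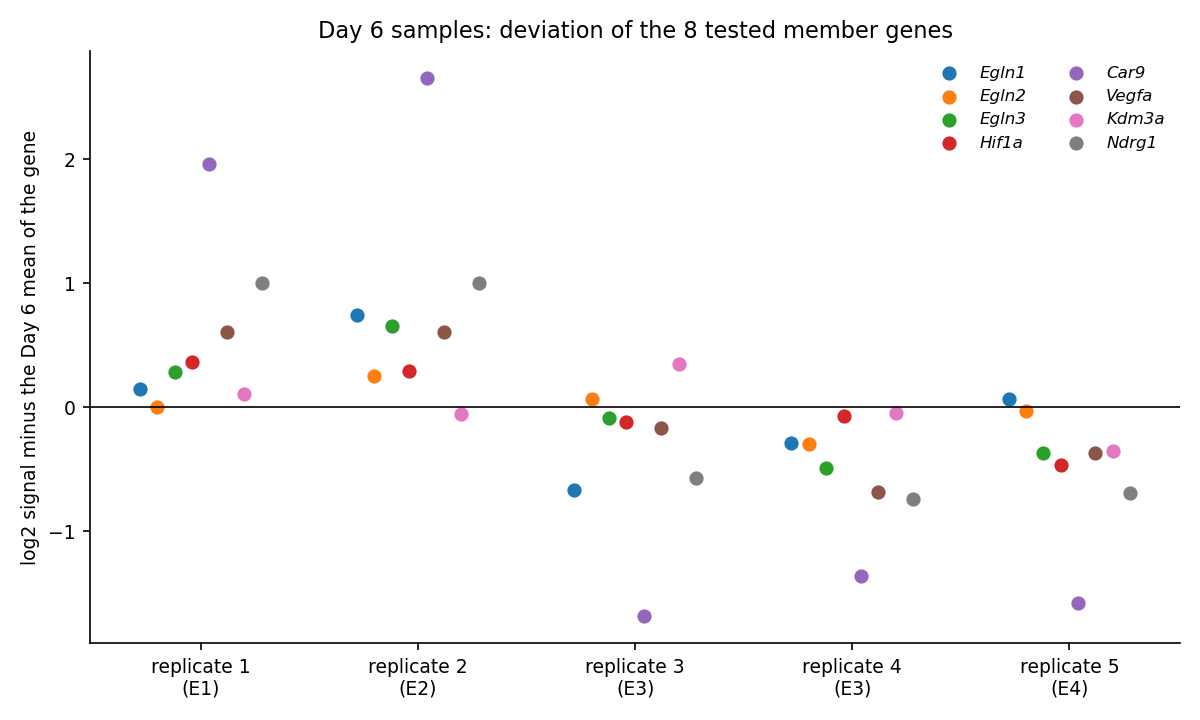
Deviation of each of the 8 tested genes from its own Day 6 mean (y axis, log2) in the 5 Day 6 samples (x axis, replicate number with the label part in brackets), each point being 1 gene in 1 sample. Car9 and Ndrg1 lie highest in replicates 1 and 2, and Egln2 and Kdm3a stay close to 0 in most samples.

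Detection rate and muscle markers were read in the same samples. The share of detected probes was 48.1, 47.5, 48.7, 45.9 and 44.7% in Day 6 replicates 1 to 5, highest in replicate 3. The 6 muscle markers deviated from their Day 6 means by a median of -0.20, 0.15, 0.04, 0.02 and -0.01, lowest in replicate 1 and highest in replicate 2. Of these 6, Ckm and Myog had their 2 highest Day 6 values in replicates 1 and 2 and Des its 2 lowest. Ckm, the muscle creatine kinase gene, read 9.67, 9.68, 9.37, 9.47 and 9.18, and Myog, the gene of the differentiation factor myogenin, 10.21, 10.48, 9.89, 9.96 and 9.98. The endothelial receptor genes Kdr and Tek also had their 2 highest Day 6 values there, Kdr at 5.35, 5.29, 5.00, 5.18 and 5.25 and Tek at 4.79, 4.69, 4.67, 4.38 and 4.37, while Pecam1, Cdh5, Tie1 and Emcn were undetected in all of these samples. Both Kdr and Tek had low signals, with Tek detected in only 3 Day 6 samples. Their order rests on small gaps, 5.29 against 5.25 for Kdr and 4.69 against 4.67 for Tek. The part of these markers in the members' differences was not tested. The label part is E1 for Day 6 replicate 1, E2 for replicate 2, E3 for replicates 3 and 4 and E4 for replicate 5, and its part in the difference was not tested.

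The genes whose pattern over the 10 samples was most like that of Car9, by the root mean square difference of values centred on each gene's mean, were Cdhr1 (0.46), Ckmt2 (0.54) and Fgf21 (0.75). Fgf21, a secreted metabolic hormone, read 10.83, 10.81, 6.10, 7.28 and 7.36 in Day 6 replicates 1 to 5. Ckmt2, the mitochondrial creatine kinase of striated muscle, read 9.66, 9.89, 7.00, 6.51 and 6.78. Cdhr1, a cadherin-related protein, read 9.24, 9.61, 5.21, 6.05 and 6.12. All of them shared the high replicates 1 and 2, which follows from choosing them by their likeness to Car9 in these same samples. The genes nearest to Egln3 were Hspb3 (0.29), Cacnb1 (0.32) and Sypl2 (0.33), a small heat shock protein, a calcium channel subunit and a synaptophysin-like protein, each known from muscle. Their Day 6 means were 7.24, 7.19 and 7.15. All of them were near background on Day 0, with means of 4.69, 4.55 and 4.38. Hspb3 was detected in 3 Day 0 samples, Cacnb1 in 1 and Sypl2 in none, whereas Egln3 was detected in every sample.

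The other genes of oxygen sensing and HIF regulation mostly did not pass the test. Of 22 with a probe, 18 were tested, of which 1 rose, 2 fell and 15 were not called (16.7% called and a median change of -0.08, where all genes had 45.3% and -0.03). Usp20, a deubiquitinase that can stabilize HIF-1 alpha, rose by 1.49 (adjusted p = 7e-05), and the chaperone gene Hsp90aa1 and the polyamine acetyltransferase gene Sat1 fell, with changes of -0.69 and -0.68. The Hsp90aa1 probe was near background, at 5.64 on Day 0 and 4.95 on Day 6, where 4 samples were detected. The size of its decrease is limited by this low signal. Vhl, the recognition subunit of the HIF ubiquitin ligase, changed by 0.09 (adjusted p = 0.652), the asparaginyl hydroxylase gene Hif1an by -0.12 (adjusted p = 0.515) and the beta subunit gene Arnt by 0.32 (adjusted p = 0.203), none of them called. Hif1an was detected in only 3 Day 0 and 2 Day 6 samples, so its change is limited by low signal. Epas1, the gene of HIF-2 alpha, was undetected on every array and Hif3a was detected in 2 samples of each day, and neither was tested. With Day 0 replicate 3, 4 or 5 left out 2 genes were higher, and with Day 0 replicate 3 or 4 or Day 6 replicate 2, 3 or 5 left out 1 gene was lower.

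HIF targets of glucose uptake and glycolysis moved in both directions. Of 22 with a probe, 18 were tested, of which 2 rose, 3 fell and 13 were not called (27.8% called and a median change of 0.01, beside the 45.3% and -0.03 of all genes). The glycogen synthase gene Gys1 rose by 1.66 (adjusted p = 3.55e-06) and the hexokinase gene Hk2 by 0.56 (adjusted p = 0.00482). The glucose transporter gene Slc2a1 read 11.20, 11.46, 10.83, 11.23 and 11.69 on Day 0 and 10.51, 10.47, 9.69, 9.84 and 9.41 on Day 6, a change of -1.29 (adjusted p = 0.000473). The days of Slc2a1 did not overlap, and within Day 6 replicates 1 and 2 were again the highest. The phosphoglycerate mutase gene Pgam1 fell with a change of -1.07 (adjusted p = 0.00652) and the bifunctional enzyme gene Pfkfb4 with -0.51 (adjusted p = 0.027). With equal array medians 1 gene of the list was higher and 3 were lower.

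Of 41 other HIF targets with a probe, 36 were tested, and 12 were higher, 8 lower and 16 not called (55.6% called and a median change of 0.33, beside the 45.3% and -0.03 of all genes). The largest increases were those of the growth factor gene Tgfb3 (2.43), the collagen prolyl hydroxylase gene P4ha1 (1.72), the IGF binding protein gene Igfbp3 (1.41), the clock repressor gene Bhlhe41 (1.13, detected in 1 Day 0 sample) and the chemokine gene Cxcl12 (1.09). The largest decreases were those of Angptl4 (-2.30), an inhibitor of lipoprotein lipase, the VEGF receptor gene Flt1 (-1.89), the endothelin gene Edn1 (-1.09), the cytokine gene Mif (-0.84) and the lysyl oxidase-like gene Loxl2 (-0.82). On Day 6 Flt1 was detected in 4 samples, Edn1 in 3 and Loxl2 in 2, so the sizes of their decreases are limited by low signal. The number of lower genes was 5 without Day 0 replicate 3, Day 0 replicate 4 or Day 6 replicate 3 and 4 without Day 6 replicate 5. With equal array medians 6 of the 36 were higher and 5 lower, against 12 and 8.

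**Figure D4:**
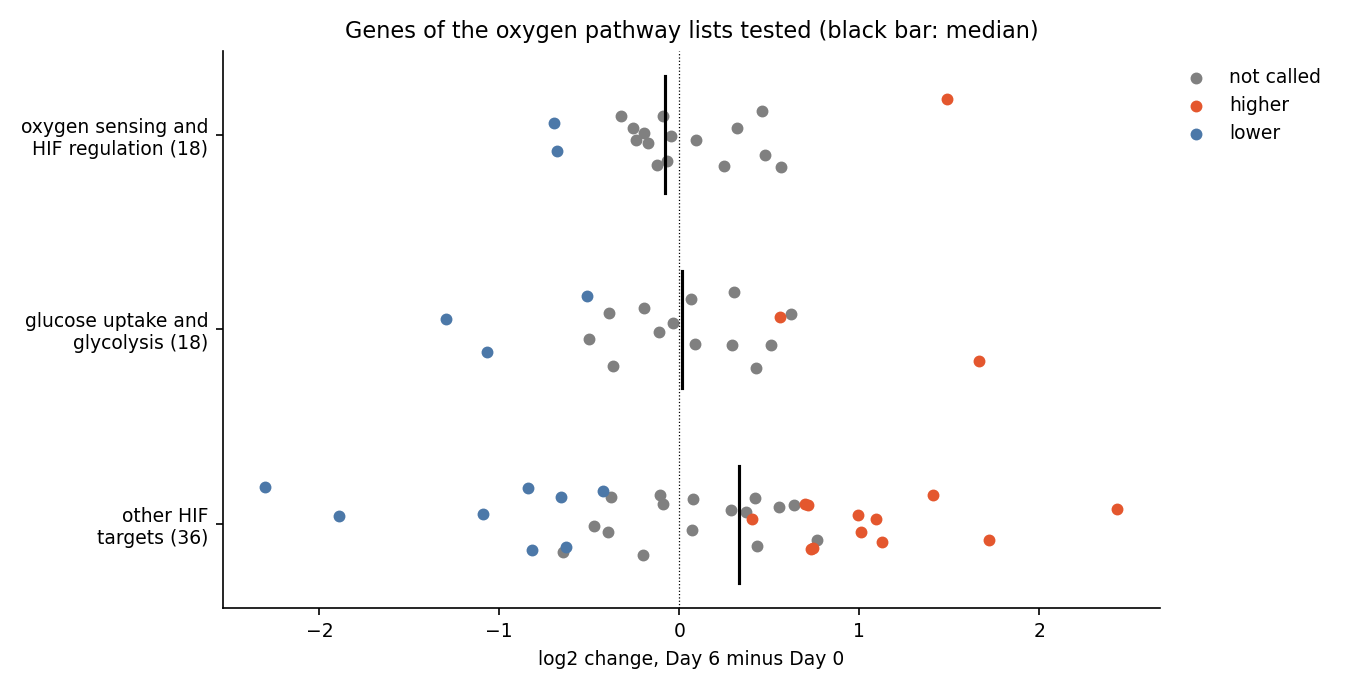
Log2 change from Day 0 to Day 6 (x axis) of the tested genes of 3 lists, oxygen sensing and HIF regulation (18 genes), HIF targets of glucose uptake and glycolysis (18) and other HIF targets (36), each point being 1 gene, coloured by its limma call, with the list median as a black bar and points spread vertically for legibility. The medians lie at -0.08, 0.01 and 0.33, and each list holds genes on both sides of 0.

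The lists were also read sample by sample on Day 6. For the glycolytic targets the median deviation from the Day 6 mean was 0.22, 0.42, -0.18, -0.13 and -0.24 in replicates 1 to 5, and replicate 2 was the highest of the 5 in 15 of 18 genes. For the other targets it was 0.20, 0.17, -0.15, -0.18 and -0.15. For the genes of oxygen sensing it stayed between -0.06 and 0.03. Replicates 1 and 2 held the 2 highest Day 6 values in 13 of 18 glycolytic targets, 18 of 36 other targets and 2 of 18 oxygen sensing genes, beside the 18.2% of all genes given above. The reverse order was shown by 1 of 18, 1 of 36 and 4 of 18 of them, Gys1 and Usp20 included, beside 18.4% of all genes.

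**Figure D5:**
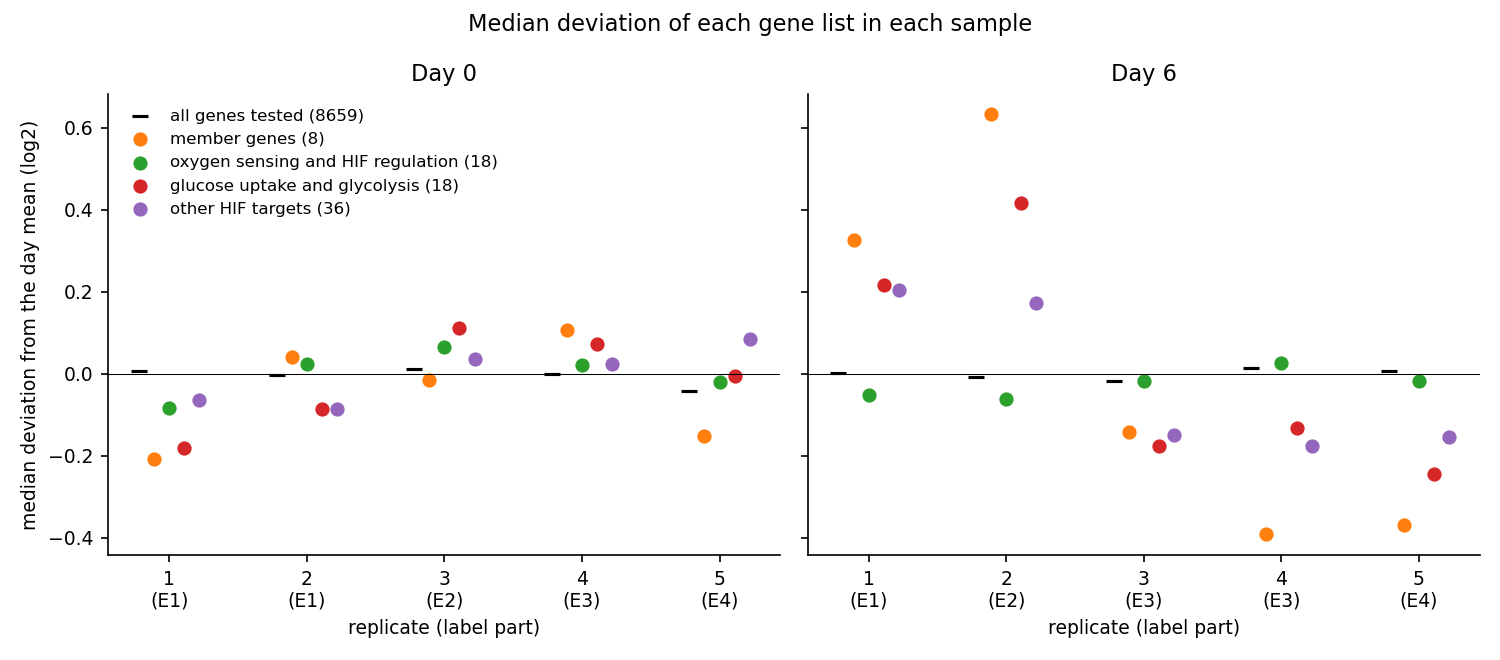
Median deviation of each gene list from its genes' own day means (y axis, log2) in each Day 0 (left) and Day 6 (right) sample (x axis, replicate number and label part), for all 8659 genes tested (black bars), the 8 tested members, and the 3 pathway lists (coloured points). In Day 6 replicate 2 the members reached 0.63 and the glycolytic targets 0.42, while all genes lay within 0.02 of 0 on Day 6.

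Among the listed targets, Pdk1, Ddit4, Ak4, Aldoc and Car12 were picked after their values were seen, for high values in Day 6 replicates 1 and 2, and none of them was called between the days. Pdk1, the kinase that restrains pyruvate dehydrogenase, read 7.94, 8.20, 6.65, 5.75 and 5.87 in Day 6 replicates 1 to 5 and 6.04, 5.52, 7.36, 6.92 and 6.01 on Day 0, so that its high samples on Day 0 were replicates 3 and 4, as for Ndrg1. Ddit4, an inhibitor of mTORC1 signalling, read 8.32, 8.38, 6.14, 6.94 and 6.50 on Day 6. Ak4, a mitochondrial adenylate kinase, read 6.59, 6.32, 4.82, 4.48 and 4.79. The aldolase gene Aldoc and the carbonic anhydrase gene Car12 were detected on Day 6 only in replicates 1 and 2, at 6.27 and 6.39 for Aldoc and 6.20 and 6.61 for Car12, and were not tested.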

How the data were processed

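The authors hybridized the RNA to 11 BeadChip arrays and extracted probe intensities with GenomeStudio 2011.1 (per the labels and methods). The deposited intensities, lowest value 34, are not background-corrected or normalized between arrays, and come with a deposited detection p-value per probe. The authors also deposited a score per probe (Z-score), the log signal minus its array's mean over its array's SD. Scores recomputed this way lay within 0.005 of the deposited score values.

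Signals were background-corrected and quantile normalized on the log2 scale by neqc (limma 3.58.1 in R 4.3.3) with an offset of 16 and negative controls inferred from the detection p, and the 2 arrays of Day 0 replicate 5 were averaged. Probes with a detection p under 0.05 in 3 or more samples of a day were kept (12753 probes, 8659 genes). Day 6 was compared with Day 0 by lmFit and eBayes without covariates, adjusted over all genes or, where stated, all probes. Fits were tested on simulated data. The limma p-values weigh the difference of the day means against the spread between these samples, and 5 samples a day limit the precision. A fold against a day with no detected sample is a bound set by the lowest detected signals of that day's arrays. Of the probes, 23978 carried 1 symbol and 1719 none, and 23962 were matched to RefSeq names (GRCm38.p6), which also gave the promoter windows. Plots used Python 3.11.15, matplotlib 3.10.9 and pandas 2.3.3.

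The members and lists (oxygen sensing, glycolytic and other HIF targets, and markers of muscle, endothelial cells, macrophages and adipocytes) were chosen with earlier results of these data known. Named were all members, Hif1an, Vhl, Epas1, Hif3a and Arnt, up to 5 called genes per direction of each pathway list, the 3 genes nearest to Egln3 and to Car9, and the markers. Pdk1, Ddit4, Ak4, Aldoc and Car12 were named outside this rule, after their values were seen.

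As alternatives, background correction was left out or done by normexp without controls (offset 50), array medians were set equal, the deposited Z-scores were used, the detection filter was dropped or asked of all 10 samples, only the first or the repeat array of Day 0 replicate 5 was used, and a replicate block, an E1 to E4 block and a robust trend were fitted. The probe with the largest SD stood for its gene, each sample or both E4 samples were left out, and the methods' Z-ratio (the mean Z-score difference over its SD across probes) was called at 1 or more in size. Whether samples with the same replicate number were paired cultures is not stated, and the main fit was unpaired. Sample headers end in an unexplained number that rises in equal steps with the replicate number on both days. Same-numbered samples correlated in their deviations from the day means by -0.24 to 0.19, which cannot settle whether they were pairs. Only the arrays were analysed here.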

Additional observations from a re-analysis of the deposited data

How the results depend on the processing

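Egln3 was called higher under every alternative, with changes of 2.37 to 2.67 when single samples were left out and a Z-ratio of 4.19. The member genes called higher numbered 3 and those called lower 1 whichever sample was left out, and the member probes 5 to 6 and 1. With equal array medians 1155 genes of all were higher, 3 member probes, 1 glycolytic target and 6 other targets, and 5 other targets were lower; the median of all genes moved there from -0.03 to -0.13. With Z-scores 5 other targets were lower. With no detection filter 1 oxygen sensing gene and 4 other targets were lower. With detection in all 10 samples required, Egln2 and Car9 were not tested, 0 member genes and 0 member probes were lower, and 1 oxygen sensing gene and 5 other targets were lower. Without both E4 samples 2 oxygen sensing genes were higher. By the Z-ratio 0 member genes were lower, Egln2 standing at -0.55, and 1 oxygen sensing gene was lower, while the second Car9 probe (2.08) and the second Ndrg1 probe (-1.03) passed. Leaving out single samples gave 1630 to 1985 genes higher and 1882 to 2352 lower, 1 to 2 and 1 to 3 oxygen sensing genes, 2 to 3 and 2 to 4 glycolytic targets, and 8 to 15 and 4 to 8 other targets. Over these, Egln2 ranged from -0.72 to -0.48, Car9 from 1.82 to 2.90 and Kdm3a from 0.70 to 0.90.

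With the replicate block the second Car9 probe, which passed the detection filter through Day 6 alone, was called (1.60, adjusted p = 0.0423). No other call on a member changed with this block. In their deviations from the day means, 0 of the 5 Day 0 samples correlated best with the same number at Day 6. The genes that were not called had no settled sign. Hif1a (-0.13 to 0.08 with single samples left out) was at 0.0244 with the repeat array of Day 0 replicate 5, 0.003 with the E1 to E4 block, 0.0171 without Day 0 replicate 4 and 0.0811 without Day 6 replicate 5. Egln1 (-0.29 to 0.07) was at 0.0073 with the E1 to E4 block and 0.0651 without Day 6 replicate 3, and its second probe (-0.28 to 0.05) at 0.0065 without Day 0 replicate 1 and 0.047 without Day 6 replicate 5. Vegfa was at -0.32 when its probe with the largest SD was used. Ndrg1 (-0.41 to 0.16) was at 0.16 without Day 0 replicate 3, 0.03 without Day 6 replicate 4 and 0.01 without Day 6 replicate 5. Probes near background (Egln2 on Day 6, Car9 on Day 0, Adm and Bnip3) are limited by signal, and the causes of these differences between settings were not tested.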
